A study of Mus musculus with 8 samples.

Results

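Nuclear factor erythroid 2-related factor 2 (NRF2) antioxidant response genes were examined in livers that lacked the bile acid receptor FXR and either kept or lost the repressor BCL6 in hepatocytes. The set holds 10 genes of 24940 in the count table, matched by symbol: *Nfe2l2*, *Keap1*, *Nqo1*, *Gclc*, *Gclm*, *Hmox1*, *Srxn1*, *Txnrd1*, *Slc7a11* and *G6pdx*. All 10 were found. RNA-seq was run on 8 livers of C57BL/6 males, 4 of each genotype, whose ages were not given in the sources used here. FXRKO livers (Bcl6(fl/fl), FXR(homo)) had no functional *Fxr* in any tissue and carried floxed, intact *Bcl6*. BCL6LKOFXRKO livers (Alb-Cre, Bcl6(fl/fl), FXR(homo)) had the same alleles plus Cre driven by the albumin promoter, which removes *Bcl6* in hepatocytes. Cre was present only in BCL6LKOFXRKO, so the presence of Cre and the loss of BCL6 cannot be told apart, and livers with intact *Fxr* were not analysed here. No treatment was labelled. Livers are numbered 1 to 4 within each genotype only to name them.

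NRF2 is a transcription factor that cells keep at low protein levels. KEAP1 binds it and presents it to a ubiquitin ligase built on CUL3, and electrophiles or oxidants that modify cysteines of KEAP1 interrupt this, so that NRF2 accumulates, pairs with a small MAF protein and binds antioxidant response elements near its target genes. In the liver, its targets make glutathione, recycle thioredoxin and peroxiredoxins, supply NADPH, break down haem and carry out phase II detoxification. The mRNA of *Nfe2l2* does not measure NRF2 protein, which was not part of these data.

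The libraries held 7586241 to 11839503 counts on genes. A floor of 3 counts corresponded to 0.272 to 0.375 CPM (counts scaled to library size with TMM factors, which allow for a few genes taking a large share), and covers counting error only. The 50 most counted genes took 29.8 to 31.2% of the counts in FXRKO livers and 40.7 to 44.1% in BCL6LKOFXRKO livers. *Bcl6*, the targeted gene, was at 56.3, 65.2, 21.2 and 55.6 CPM in FXRKO livers 1 to 4. In BCL6LKOFXRKO it lay between 4.61 and 11.9 CPM, below FXRKO liver 3, the lowest of its genotype. All 6 hepatocyte markers were counted in every liver, and 1 was called higher and 1 lower in BCL6LKOFXRKO. Among markers of other cells, 6 of 7 tested monocyte and macrophage markers and 4 of 6 stellate cell markers were called higher. So were 3 of 4 erythroid, 2 of 4 tested cholangiocyte, 1 of 5 endothelial and 0 of 6 Kupffer cell markers. Among these other cells, only 1 marker, an erythroid one, was called lower. Of all tested genes, 16.2% were called higher and 13.5% lower. These are whole livers, in which a change in the number of cells of a type and a change in the RNA of each cell cannot be told apart.

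The stretches before the transcription start sites are shown first, since antioxidant response elements of several of these genes are known to lie near or upstream of the start. RefSeq promoter windows (GRCm38.p6, the mm10 assembly used for the counts) matched 8 of the 10 genes, in 10 windows of 250 bases before and 50 bases after a start site, with no window for *Gclc* or *Hmox1*. The windows were searched on both strands for the core TGACNNNGC, for a second form of it, TGAGNNNGC, added after the first search had been seen, and for the AP-1 core TGANTCA, which can share bases with either form. *Nqo1* and *Srxn1*, the genes with the largest changes below, are shown as the 250 bases before the start, read on the strand of the gene, with either form of the element in capitals.
Nqo1 (chr8:107403206-107403455, minus strand): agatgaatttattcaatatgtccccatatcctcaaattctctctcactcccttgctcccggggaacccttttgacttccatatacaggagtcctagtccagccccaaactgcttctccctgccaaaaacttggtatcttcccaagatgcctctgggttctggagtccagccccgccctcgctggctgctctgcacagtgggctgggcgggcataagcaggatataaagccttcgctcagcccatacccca
Srxn1 (chr2:152105274-152105523, plus strand): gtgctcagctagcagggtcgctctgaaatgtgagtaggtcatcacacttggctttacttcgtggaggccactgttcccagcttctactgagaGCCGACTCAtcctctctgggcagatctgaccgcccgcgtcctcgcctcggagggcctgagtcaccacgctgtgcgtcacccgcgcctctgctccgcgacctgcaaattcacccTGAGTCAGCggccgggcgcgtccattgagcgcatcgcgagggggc

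In *Srxn1*, 1 match began 158 bases upstream on the opposite strand, another began 45 bases upstream on the strand of the gene and overlapped an AP-1 core, and the last began 28 bases after the start. In *Nqo1* these letters were not in the window, and the same held for *Keap1*, which says nothing of elements farther away. The matches in the windows of the other members are shown, called or not, with 10 bases on each side, read on the strand of the gene, with the match in capitals.
Nfe2l2 (chr2:75704885-75704913, minus strand, 240 bases upstream): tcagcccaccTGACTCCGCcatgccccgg
Gclm (chr3:122245413-122245441, plus strand, 134 bases upstream, match on the opposite strand): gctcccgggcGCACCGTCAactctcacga
Txnrd1, RefSeq start site 2 of 3 (chr10:82859104-82859132, plus strand, 92 bases upstream, match on the opposite strand): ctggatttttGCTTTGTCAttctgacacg
Slc7a11 (chr3:50443692-50443720, minus strand, 97 bases upstream, second form on the opposite strand): taatgttggcGCTTTCTCAagctggagtt
G6pdx (chrX:74428919-74428947, minus strand, 57 bases upstream of the RefSeq start site at 74428880, match on the opposite strand): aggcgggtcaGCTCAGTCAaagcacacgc
The start site of the *G6pdx* window lies 281 bases inside the span of the transcript used for counting, which starts at 74429161, so this match is within the counted gene. Of the 8 members with windows, 5 held the first form in a window, 2 the second and 6 either. Among all 32851 RefSeq promoter windows of this length, 12.4% held the first form, 17.6% the second, 27.8% either and 7.81% the AP-1 core. A member was counted once over its windows, 3 of them for *Txnrd1*, while these shares are of single windows, so the units differ. These matches describe the letters and are not evidence of binding.

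The question put to the counts was which of these genes differed between livers with and without hepatocyte BCL6 when FXR was absent from both. *Nqo1*, a quinone reductase, and *Srxn1*, sulfiredoxin, which restores overoxidised peroxiredoxins, were more than 3-fold higher in BCL6LKOFXRKO livers. *Nfe2l2* and *Keap1* were 1.30-fold higher. The genes for glutathione synthesis, *Gclc* and *Gclm*, and *Txnrd1*, cytosolic thioredoxin reductase, were not called in either direction. Of the 10 members, 9 passed the filter on low counts, and *Slc7a11* did not. With edgeR's quasi-likelihood test and Benjamini-Hochberg adjustment over 12340 tested genes, 4 of the 9 were called higher at an adjusted p under 0.05, or 44.4%, beside 16.2% of all tested genes. The count was 5 with DESeq2, 5 with limma voom, 3 with no filter and 2 with library totals alone. It was 2 without FXRKO liver 3 and 2 without FXRKO liver 4. None was called lower, beside 13.5% of all tested genes, and of the 3 members with a negative difference none had an unadjusted p under 0.05. DESeq2 and limma voom also called 0 lower. The median log2 fold change was 0.38 over the 9 members and 0.01 over all tested genes. The livers of the 2 genotypes did not overlap, with BCL6LKOFXRKO higher, for 3 of the 9 members, beside 16.1% of all tested genes. The members were chosen with earlier results of these data known, so these shares are not a test of the set.

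**Figure D1:**
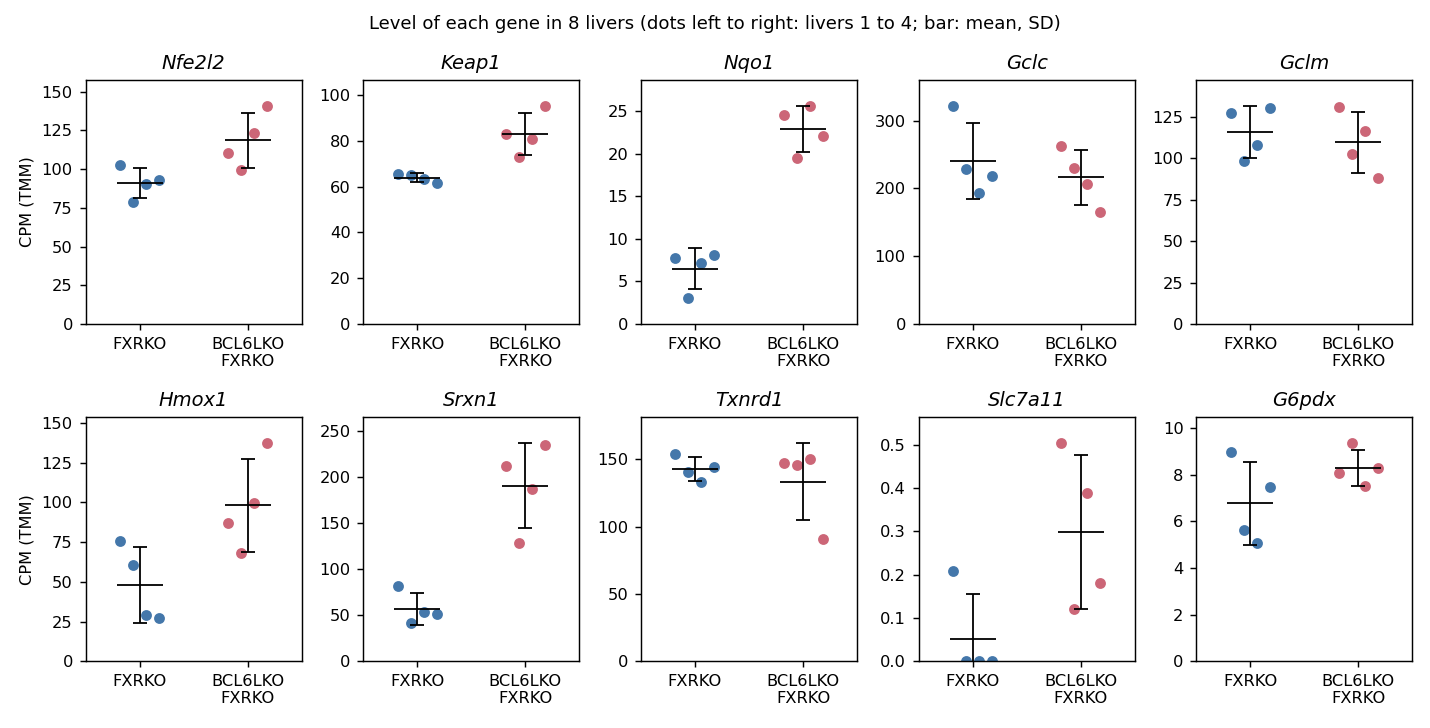
CPM (y axis, from 0, a separate scale for each gene) of the 10 genes in 4 FXRKO livers (blue) and 4 BCL6LKOFXRKO livers (red), with the mean and SD as bars. The genotypes are apart for *Keap1*, *Nqo1* and *Srxn1* and overlap for *Nfe2l2*, *Gclc*, *Gclm*, *Hmox1*, *Txnrd1* and *G6pdx*, while *Slc7a11* is at or near 0 in every liver.

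*Nfe2l2* (NM_010902, chr2:75675513-75704663, minus strand), the gene of NRF2, was at 102.5, 78.9, 90.2 and 92.8 CPM in FXRKO livers 1 to 4 and at 110.7, 99.6, 123.5 and 140.8 CPM in BCL6LKOFXRKO livers 1 to 4. BCL6LKOFXRKO liver 2 lay below FXRKO liver 1, so the genotypes overlapped. The means were 91.1 ± 9.73 and 118.7 ± 17.7 CPM (SD, n = 4 each), and edgeR gave a log2 fold change of 0.38 (SE 0.13, adjusted p = 0.0395). The exact two-sided permutation test over 70 orderings of the livers gave p = 0.0571. The call rested on small margins. It was lost without FXRKO liver 2, 3 or 4 or without BCL6LKOFXRKO liver 1, 3 or 4. The log2 values were then 0.29 to 0.41, with adjusted p from 0.0557 to 0.126. With no filter on low counts edgeR gave 0.36 (adjusted p = 0.0558), again not called. Of 16 alternative fits, 8 called *Nfe2l2*.

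*Keap1* (NM_016679, chr9:21229730-21239332, minus strand), which encodes the sensor that holds NRF2 down, was at 65.5, 65.1, 63.4 and 61.5 CPM in FXRKO and at 82.8, 72.8, 80.8 and 95.2 CPM in BCL6LKOFXRKO. Every BCL6LKOFXRKO liver was above every FXRKO liver, and the FXRKO livers differed little among themselves. The means were 63.9 ± 1.82 and 82.9 ± 9.25 CPM (SD, n = 4 each), and edgeR gave a log2 fold change of 0.38 (SE 0.11, adjusted p = 0.0183). The exact permutation p was 0.0286, the smallest that 4 against 4 livers allow. The adjusted p became 0.0528 without FXRKO liver 3 and 0.0541 without FXRKO liver 4. An antisense gene, *Gm16754*, overlaps exons of *Keap1* on the opposite strand, and the stated counting options name no strand, so their reads cannot be told apart. When counts were scaled by library totals alone, *Nfe2l2* and *Keap1* were at log2 fold changes of 0.22 each and neither was called (adjusted p = 0.21 and 0.15). That scaling lowered the log2 fold changes of all genes by a median of 0.16.

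*Nqo1* (NM_008706, chr8:107388225-107403205, minus strand) was at 7.70, 2.999, 7.20 and 8.14 CPM in FXRKO livers and at 24.5, 19.4, 25.5 and 22.1 CPM in BCL6LKOFXRKO livers. The lowest BCL6LKOFXRKO liver was above the highest FXRKO liver by more than the range within either genotype, and FXRKO liver 2 was the lowest of all. The means were 6.51 ± 2.37 and 22.9 ± 2.72 CPM (SD, n = 4 each), a 3.48-fold difference with a 95% interval of 2.45 to 4.93 (edgeR log2 fold change 1.80, SE 0.23, adjusted p = 0.000109). With counts as low as 24 in FXRKO liver 2, *Nqo1* was among the least deeply counted members tested.

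*Srxn1* (NM_029688, chr2:152105524-152111376, plus strand) was at 82.3, 42.2, 53.4 and 51.2 CPM in FXRKO and at 212.3, 128.8, 187.3 and 235.5 CPM in BCL6LKOFXRKO. All BCL6LKOFXRKO livers were above all FXRKO livers, and the highest FXRKO liver was liver 1. The means were 57.3 ± 17.4 and 191 ± 45.9 CPM (SD, n = 4 each), a 3.33-fold difference with a 95% interval of 2.37 to 4.69 (edgeR log2 fold change 1.74, SE 0.23, adjusted p = 0.000186). *Nqo1* and *Srxn1* were called in each of 16 alternative fits, with log2 fold changes from 1.57 to 1.97 for *Nqo1* and from 1.58 to 1.96 for *Srxn1*. The exact permutation p was 0.0286 for each.

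*Hmox1* (NM_010442, chr8:75093618-75100593, plus strand), the inducible haem oxygenase, was at 75.6, 60.6, 29.2 and 27.1 CPM in FXRKO and at 87.1, 68.2, 99.6 and 137.1 CPM in BCL6LKOFXRKO. FXRKO liver 1 lay above BCL6LKOFXRKO liver 2, and FXRKO livers 3 and 4 were less than 0.5 times livers 1 and 2 of their own genotype. The means were 48.1 ± 23.9 and 98.0 ± 29.1 CPM (SD, n = 4 each), a 2.04-fold difference with a 95% interval of 1.13 to 3.69, which missed the threshold (edgeR log2 fold change 1.03, SE 0.37, adjusted p = 0.0704, exact permutation p = 0.0571). The adjusted p was 0.00521 with DESeq2 and 0.0223 with limma voom, and without FXRKO liver 1 it was 0.0172 with edgeR at a log2 fold change of 1.33.

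Macrophages that take up red cells are also known to express *Hmox1*. The summed monocyte and macrophage markers were at 66.9 to 105.8 CPM in FXRKO and 162.4 to 244.3 CPM in BCL6LKOFXRKO, with 6 of 7 called higher and none at 0 in any liver. *Lyz2* was the largest part of this sum, with means of 67.2 CPM in FXRKO and 117.8 CPM in BCL6LKOFXRKO. The summed Kupffer cell markers were at 272 to 379 CPM and 313 to 617 CPM, with 0 of 6 called and none at 0. Erythroid markers summed to 610.6 to 891 CPM and 760.4 to 1104 CPM, with 3 of 4 called higher and 1 lower. Of all tested genes, 16.2% were called higher and 13.5% lower. Within FXRKO, liver 4 had the highest macrophage and Kupffer cell sums, 105.8 and 379 CPM, and the lowest *Hmox1*. Within BCL6LKOFXRKO, liver 4 had the highest macrophage and Kupffer cell sums and the highest *Hmox1*. Liver 2 of that genotype had a macrophage sum of 221.8 CPM and the lowest *Hmox1*, 68.2 CPM. Its liver 3 had the lowest macrophage sum, 162.4 CPM, with *Hmox1* at 99.6 CPM. The part of these cells in the level of *Hmox1* was not tested.

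*Gclc* (NM_010295, chr9:77754535-77794489, plus strand), the catalytic subunit of glutamate-cysteine ligase, which carries out the rate-limiting step of glutathione synthesis, was at 321.8, 228.4, 193.5 and 218.5 CPM in FXRKO and at 263, 230.7, 206.4 and 165.6 CPM in BCL6LKOFXRKO. FXRKO liver 1 was the highest and BCL6LKOFXRKO liver 4 the lowest, and the other livers were interleaved. The means were 240.5 ± 56.1 and 216 ± 41.0 CPM (SD, n = 4 each). The fold was 0.900 with a 95% interval of 0.694 to 1.17 (adjusted p = 0.543 from edgeR). Without FXRKO liver 1 the log2 fold change turned from -0.15 to 0.016.

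*Gclm* (NM_008129, chr3:122245557-122267215, plus strand), the modifier subunit of the same ligase, was at 127.4, 98.1, 107.7 and 130.5 CPM in FXRKO and at 131, 102.5, 116.6 and 88.0 CPM in BCL6LKOFXRKO. The range of BCL6LKOFXRKO enclosed that of FXRKO. The means were 116 ± 15.6 and 109.5 ± 18.5 CPM (SD, n = 4 each), and the fold was 0.945 with a 95% interval of 0.766 to 1.17 (adjusted p = 0.694 from edgeR). Its log2 fold change of -0.08 became 0.010 without BCL6LKOFXRKO liver 4.

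*Txnrd1* (NM_001042513, chr10:82859206-82897724, plus strand) was at 153.9, 140.7, 132.9 and 144.0 CPM in FXRKO and at 146.9, 145.7, 150.1 and 90.5 CPM in BCL6LKOFXRKO. BCL6LKOFXRKO livers 1 to 3 lay within the range of FXRKO, and liver 4 was far below all others. The means were 143 ± 8.69 and 133 ± 28.6 CPM (SD, n = 4 each), and the fold was 0.933 with a 95% interval of 0.745 to 1.17 (adjusted p = 0.649 from edgeR). Without BCL6LKOFXRKO liver 4 the log2 fold change went from -0.10 to 0.047. For *Gclc*, *Gclm* and *Txnrd1*, a rise above 1.17-fold lay outside the 95% interval, which does not show that their levels were equal. The differences in fold between members were not tested.

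**Figure D2:**
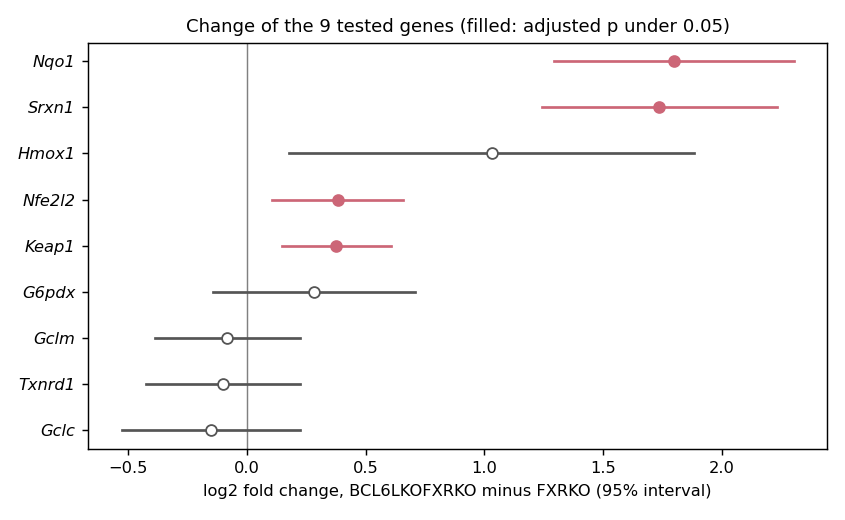
Log2 fold change, BCL6LKOFXRKO minus FXRKO (x axis), of the 9 tested members (y axis, ordered by size). Lines are 95% intervals derived from the edgeR fit, and filled points had an adjusted p under 0.05. *Nqo1* at 1.80 and *Srxn1* at 1.74 lie farthest from 0, *Hmox1* at 1.03 has the widest interval, and the intervals of *G6pdx*, *Gclm*, *Txnrd1* and *Gclc* include 0.

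*Slc7a11* (NM_011990, chr3:50364936-50443613, minus strand), the cystine transporter that feeds glutathione synthesis, had 2, 0, 0 and 0 counts in FXRKO livers and 5, 1, 4 and 2 counts in BCL6LKOFXRKO livers. Only BCL6LKOFXRKO livers 1 and 3 were above the floor of 3 counts. It was too low to pass the filter, no fold is given, and a difference was not detectable at this depth (exact permutation p = 0.0857 on CPM, adjusted p = 0.122 from edgeR without a filter).

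*G6pdx* (NM_008062, chrX:74409486-74429161, minus strand), which makes NADPH in the pentose phosphate pathway, was at 8.95, 5.62, 5.05 and 7.47 CPM in FXRKO and at 8.06, 9.34, 7.50 and 8.26 CPM in BCL6LKOFXRKO. FXRKO liver 1 exceeded 3 of the 4 BCL6LKOFXRKO livers. The means were 6.78 ± 1.78 and 8.29 ± 0.773 CPM (SD, n = 4 each), and the fold was 1.22 with a 95% interval of 0.906 to 1.64 (adjusted p = 0.303 from edgeR).

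Divided by the length of the transcript used for counting, the levels could be ordered between genes. In FXRKO livers the order in CPM per kb was *Gclc* at 70.6 ± 16.5, *Gclm* at 56.2 ± 7.55, *Txnrd1* at 42.0 ± 2.56, *Nfe2l2* at 36.6 ± 3.91, *Hmox1* at 30.7 ± 15.2, *Srxn1* at 20.4 ± 6.19, *Keap1* at 14.3 ± 0.407, *Nqo1* at 4.22 ± 1.54 and *G6pdx* at 2.61 ± 0.685 (SD, n = 4 each). *Slc7a11* was last. Among the 9 tested members, *Gclm* and *Txnrd1*, and *Keap1* and *Nqo1*, were the neighbours whose SDs did not overlap. In BCL6LKOFXRKO livers *Srxn1* stood first at 68.0 ± 16.4 CPM per kb, before *Gclc* at 63.5 ± 12.04, *Hmox1* at 62.5 ± 18.5, *Gclm* at 53.1 ± 8.96, *Nfe2l2* at 47.7 ± 7.11 and *Txnrd1* at 39.2 ± 8.41. These 6 overlapped from neighbour to neighbour. *Keap1* at 18.6 ± 2.07, *Nqo1* at 14.8 ± 1.76 and *G6pdx* at 3.19 ± 0.297 followed, with *Keap1* apart from *Txnrd1* and *G6pdx* apart from *Nqo1* by more than their SDs, and *Slc7a11* was again last.

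The livers that were highest within a genotype differed between members. FXRKO liver 1 was the highest of its genotype for 7 of the 9 tested members, all but *Nqo1* and *Gclm*, where liver 4 was highest. BCL6LKOFXRKO liver 4 was the highest of its genotype for *Nfe2l2*, *Keap1*, *Hmox1* and *Srxn1* and the lowest for *Gclc*, *Gclm* and *Txnrd1*. BCL6LKOFXRKO liver 2 was the lowest for 5 members. On the log2 scale, *Srxn1* in BCL6LKOFXRKO liver 4 was 0.34 above its genotype mean, whereas *Txnrd1* in the same liver was 0.53 below it.

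**Figure D3:**
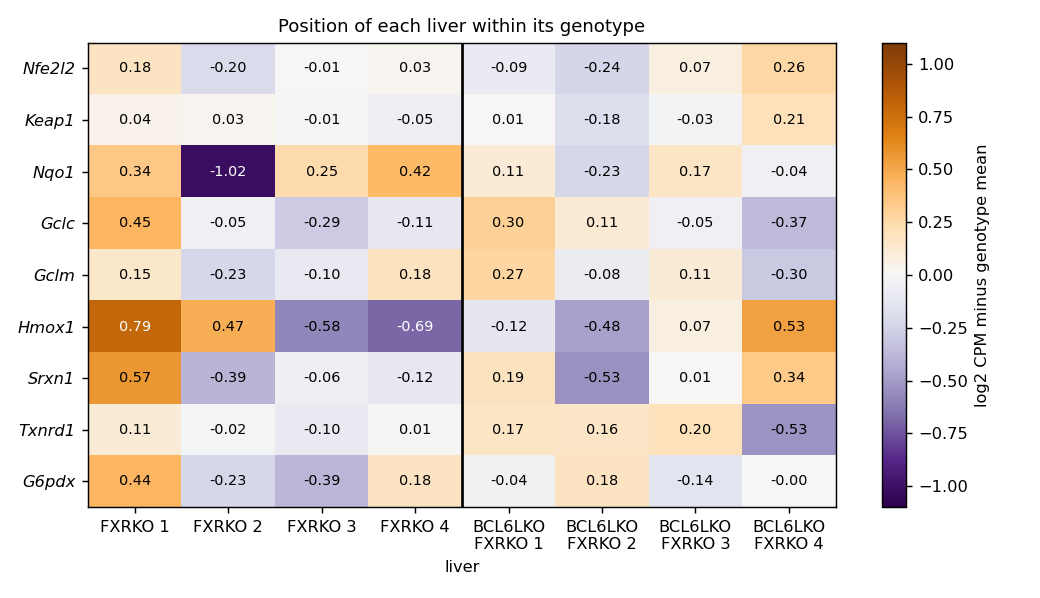
Log2 CPM of the 9 tested members (rows) in the 8 livers (columns), each minus the mean of its genotype, in log2 units by colour and number. FXRKO liver 1 is above its genotype mean for all 9 genes, from 0.04 for *Keap1* to 0.79 for *Hmox1*, and BCL6LKOFXRKO liver 4 ranges from 0.53 for *Hmox1* to -0.53 for *Txnrd1*.

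Other genes of the pathway were taken from 7 lists of 99 genes, of which 96 were tested. In all, 32 were called higher (33.3%, beside 16.2% of all tested genes) and 15 lower (15.6%, beside 13.5%), with a median log2 fold change of 0.25. The lists were also chosen with earlier results of these data known, so these shares do not test them. Log2 fold changes and adjusted p values of the genes named from here on are from the same edgeR fit.

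Among 10 tested genes that control NRF2, 4 were called higher (40%) and 2 lower (20%), beside 16.2% and 13.5% of all tested genes. *Mafk*, a small MAF partner of NRF2, rose by 0.81 on the log2 scale (adjusted p = 0.00674), from 16.5 to 32.8 CPM in FXRKO to 33.9 to 43.4 CPM in BCL6LKOFXRKO. *Sqstm1*, which encodes p62, an autophagy receptor that binds KEAP1, rose by 0.67 (adjusted p = 0.0103). The ligase subunit *Rbx1* fell by 0.41 (adjusted p = 0.0131), with FXRKO livers between 25.0 and 26.02 CPM and BCL6LKOFXRKO livers between 18.4 and 20.1 CPM. *Cul3*, the scaffold of the ligase that KEAP1 serves, was at a log2 fold change of -0.37 (adjusted p = 0.0292), a call lost without FXRKO liver 1, 3 or 4 or BCL6LKOFXRKO liver 1 (-0.37 to -0.35, adjusted p from 0.0628 to 0.071). *Btrc*, part of a second ligase for NRF2, was at 0.46 (adjusted p = 0.0288). This call was lost on removing any 1 liver except BCL6LKOFXRKO liver 2 (0.36 to 0.47, adjusted p from 0.0529 to 0.0736). With library totals alone *Btrc* was at 0.30 and was not called (adjusted p = 0.138). *Mafg*, another small MAF partner, was at 0.07 (adjusted p = 0.821). *Bach1*, a haem-sensitive repressor of the same elements, was at 0.17 (adjusted p = 0.557) and ranged from 17.5 to 39.2 CPM among BCL6LKOFXRKO livers.

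Of 15 tested glutathione genes, 6 were called higher (40%) and 5 lower (33.3%), beside 16.2% and 13.5% of all tested genes. *Gpx3*, an extracellular glutathione peroxidase, went from 8.997 to 17.5 CPM in FXRKO to 577 to 923 CPM in BCL6LKOFXRKO (log2 fold change 5.98, adjusted p = 4.88e-09). *Gss*, glutathione synthetase, which follows the ligase in the pathway, rose by 0.59 (adjusted p = 0.00351), and *Ggct*, which acts on gamma-glutamyl peptides, rose by 0.79 (adjusted p = 0.00504). *Slc3a2*, the heavy chain that pairs with the *Slc7a11* product and with other amino acid transporters, rose by 0.52 (adjusted p = 0.00574). *Gsr*, glutathione reductase, was at 0.15 (adjusted p = 0.401). Of the 5 lower genes, only the 3 ranked first by adjusted p are named here. They were *Mgst1*, a microsomal glutathione transferase (-0.97, adjusted p = 0.000228), *Gpx1*, the cytosolic glutathione peroxidase (-0.80, adjusted p = 0.000431), and *Oplah*, 5-oxoprolinase (-0.73, adjusted p = 0.000573). *Gpx2*, named after its values were seen, was too low to be tested, with 0 counts in every FXRKO liver, which allows up to 3 counts a liver, and 9, 9, 6 and 16 counts in BCL6LKOFXRKO livers.

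The 15 thioredoxin, peroxiredoxin and superoxide genes gave 2 calls in each direction and a median log2 fold change of -0.01. Each direction held 13.3% of the list, beside 16.2% of all tested genes called higher and 13.5% called lower. *Sod3*, the extracellular superoxide dismutase, rose by 0.89 (adjusted p = 9.95e-05), and *Prdx4*, the peroxiredoxin of the endoplasmic reticulum, rose by 0.55 (adjusted p = 0.00242). *Cat*, catalase, was at 3218 to 4086 CPM in FXRKO and 1505 to 1966 CPM in BCL6LKOFXRKO (-1.02, adjusted p = 0.00011). *Prdx6* fell by 0.52 (adjusted p = 0.00409). *Txn1*, the substrate of the reductase encoded by *Txnrd1*, was at 0.18 (adjusted p = 0.243).

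Among 9 genes that supply NADPH, 4 were called higher (44.4%) and 1 lower (11.1%), beside 16.2% and 13.5% of all tested genes. *Pgd*, the pentose phosphate enzyme that makes NADPH after the *G6pdx* product, was at 66.3, 54.7, 53.1 and 45.1 CPM in FXRKO and at 117.5, 112.1, 103.0 and 126.8 CPM in BCL6LKOFXRKO. All BCL6LKOFXRKO livers were higher (log2 fold change 1.07, adjusted p = 5.2e-05). *Taldo1*, transaldolase, was at 0.52 (adjusted p = 0.0121) and *Nnt*, the mitochondrial transhydrogenase, at 0.47 (adjusted p = 0.00524); with library totals alone their adjusted p were 0.0585 and 0.0522. *Me1*, malic enzyme, was at -0.51 (adjusted p = 0.0175), and its adjusted p was 0.0528 without FXRKO liver 1 (log2 fold change -0.44) and 0.0611 without FXRKO liver 3 (-0.42).

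Haem and iron genes gave 2 higher (18.2%) and 3 lower (27.3%) calls of 11, beside 16.2% and 13.5% of all tested genes. *Fth1*, the ferritin heavy chain that stores iron, rose by 0.59 (adjusted p = 0.00937), and *Hpx*, the plasma haem carrier haemopexin, rose by 0.84 (adjusted p = 0.0128). *Fech*, which completes haem synthesis, fell by 0.70 (adjusted p = 0.000765). *Hmox2*, the constitutive haem oxygenase, was at -0.35 (adjusted p = 0.0427), and the call was lost without FXRKO liver 1, 2 or 4 or BCL6LKOFXRKO liver 1, 2 or 3 (-0.34 to -0.31, adjusted p from 0.0827 to 0.107). *Abcb6*, a porphyrin transporter, was at -0.31 (adjusted p = 0.0442). That call was lost without any 1 liver except BCL6LKOFXRKO liver 4 (-0.35 to -0.26, adjusted p from 0.0535 to 0.126). Over all 16 alternative fits, *Hmox2* was called in 9 and *Abcb6* in 8. The biliverdin reductases *Blvra* and *Blvrb*, which act after haem oxygenase, were at 0.26 (adjusted p = 0.235) and 0.46 (adjusted p = 0.18), and *Blvrb* was called without BCL6LKOFXRKO liver 2 (0.65, adjusted p = 0.00651).

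The detoxification and efflux list had the highest median of the lists, 0.54, with 12 of 27 tested genes called higher and 2 lower. These were 44.4% and 7.41% of the list, beside 16.2% and 13.5% of all tested genes. *Abcc4*, an exporter of organic anions on the blood side of hepatocytes, was at 5.12 to 6.97 CPM in FXRKO and 26.8 to 53.1 CPM in BCL6LKOFXRKO (2.60, adjusted p = 3.13e-06). *Cbr1*, a carbonyl reductase, rose from 40.5 to 47.6 CPM in FXRKO to 102.7 to 146.8 CPM in BCL6LKOFXRKO (1.48, adjusted p = 4.14e-06). *Gstm3*, a glutathione transferase, was at 160.1 to 294 CPM and 672 to 1282 CPM (2.31, adjusted p = 2.77e-05), though near-identical copies in this family leave its reads uncertain. The efflux pumps *Abcg2* (-1.03, adjusted p = 2.07e-05) and *Abcc3* (-0.91, adjusted p = 0.000427) fell.

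Genes of the ATF4 stress response, which shares *Slc7a11* as a target, gave 2 higher and 0 lower calls of 9 tested. Those called higher were 22.2% of the list, beside 16.2% of all tested genes, of which 13.5% were called lower. *Atf4* itself was at 0.14 (adjusted p = 0.431). *Atf3* was at 1.87 (adjusted p = 0.0274), a call lost without FXRKO liver 2, 3 or 4 or BCL6LKOFXRKO liver 3 or 4 (1.61 to 1.82, adjusted p from 0.0572 to 0.0857). *Ddit3*, which encodes CHOP, was at 0.83 (adjusted p = 0.0451). Its call was lost without FXRKO liver 2, 3 or 4 or BCL6LKOFXRKO liver 1 or 4 (0.49 to 0.92, adjusted p from 0.0622 to 0.122). Over all alternative fits, *Atf3* was called in 9 of 15 and *Ddit3* in 8 of 16.

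**Figure D4:**
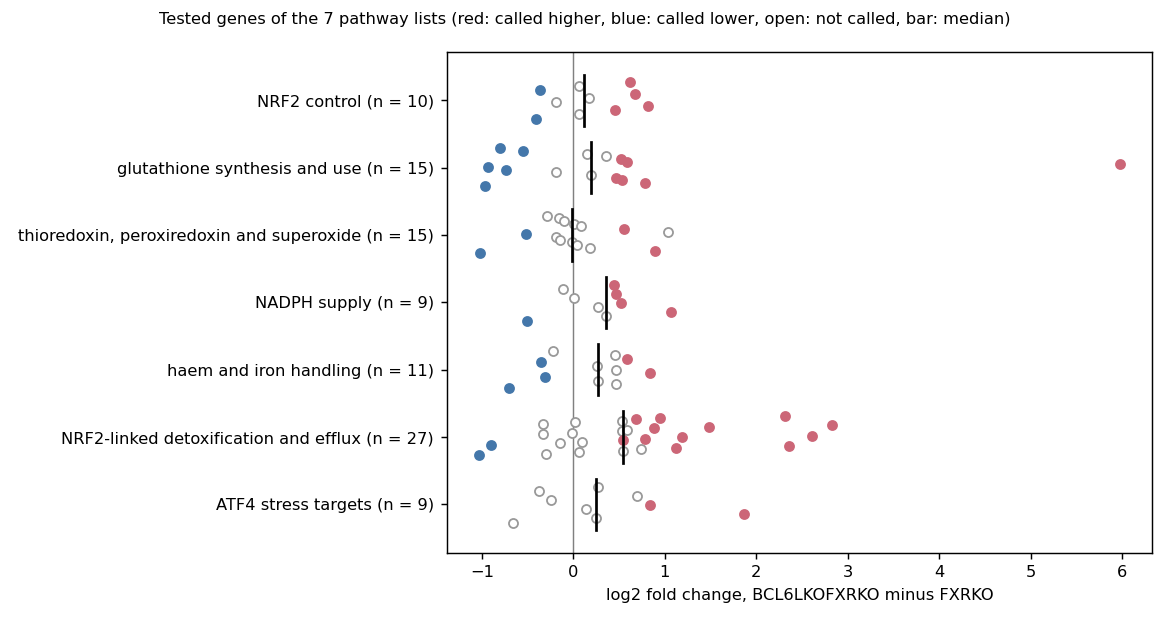
Log2 fold change, BCL6LKOFXRKO minus FXRKO (x axis), of each tested gene in the 7 lists (y axis); red points were called higher and blue points lower, open points were not called, and the black bar is the list median. The median is 0.54 for detoxification and efflux and -0.01 for the thioredoxin list, and *Gpx3* at 5.98 lies far from the other genes.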

How the data were processed

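Liver RNA of 4 FXRKO and 4 BCL6LKOFXRKO males was sequenced by the authors (TruSeq Stranded mRNA, 100 bp single-end reads). Reads were aligned to mm10 with STAR 2.5.2, keeping those with 1 location and few mismatches, and exonic reads were summed by gene as raw counts with HOMER (version 4.10 per the submitters' processing notes) and deposited by the authors without normalization, with 1 transcript kept per gene. The counting options name no strand.

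Groups were taken from the sample labels. Tests used edgeR 4.0.16 (R 4.3.3), with filterByExpr, TMM factors and a robust quasi-likelihood model of genotype over all 8 livers. P values of the 12340 genes that passed the filter were adjusted by the Benjamini-Hochberg method, and calls were made under 0.05. Each SE was derived from the edgeR fit, as the size of the fitted coefficient over the square root of the F statistic. The 95% intervals were built from the log2 fold change, this SE and the t distribution. CPM use the TMM factors. Exact permutation tests on CPM were two-sided. DESeq2 1.42.0, which the study's methods name, and limma 3.58.1 (voom with quality weights) were alternatives, with other scalings, filters, a fold threshold, a fit without robust shrinkage and each liver left out. No 2 livers of a genotype agreed within sampling noise (chi-square per degree of freedom from 10 to 45.8), but the labels do not say how the animals relate. Library depth of 7586241 to 11839503 counts limits genes near 3 counts, and 12 of the 72 counts of tested members were under 100.

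The members and lists were chosen with earlier results of these data known. The genes named are the 10 members, 12 partner genes and, of each list, the 3 called genes of each direction ranked first by adjusted p. Cell marker lists covered hepatocytes, Kupffer cells, monocytes and macrophages, cholangiocytes, stellate, endothelial, T and erythroid cells. Promoter windows came from RefSeq.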

Additional observations from a re-analysis of the deposited data

Results flagged for a closer look

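In 7 of 97 groups of 4 livers, 1 liver lay apart from the other 3 by more than Dixon's 95% limit, of which chance alone gives about 5. Each value is the liver's gap to its nearest neighbour as a share of the range. *Txnrd1* was at 90.5 CPM in BCL6LKOFXRKO liver 4 and between 146 and 150 in the others (0.926). *Cul3* was at 55.4 CPM in FXRKO liver 2 and between 63.3 and 63.7 in the others (0.953). *Gss* was high in FXRKO liver 1, at 94.6 CPM against 77.3 to 80.0 (0.84), and in BCL6LKOFXRKO liver 4, at 151 CPM against 112 to 118 (0.859). *Hmox2* was at 50.8 CPM in BCL6LKOFXRKO liver 4 against 38.2 to 39.4 (0.908). *Gstm3* was at 294 CPM in FXRKO liver 1 against 160.1 to 181 (0.845). *Blvra* was at 13.8 CPM in FXRKO liver 4 against 10.9 to 11.2 (0.895).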

How the results depend on the processing

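Of 144 values of the 9 tested members under the alternatives, 125 kept their direction and side of the threshold, 11 lost a call, 4 gained one and 4 reversed. For the other 39 named genes, 572 of 623 were kept, 45 lost a call, 1 gained one and 5 reversed. The number of members called higher was 4, and 3 with no filter. It was 2 with library totals alone and 2 with an added absolute log2 fold change above 0.5. Leaving out each liver gave 2 to 5, with 2 without FXRKO liver 3 and 2 without FXRKO liver 4. Members called lower numbered 0 throughout. With library totals alone, 2949 genes were called lower (1665 with TMM), and 32.3% of the calls were higher (54.5% with TMM). Other pathway genes called higher ranged from 25 to 38 and lower from 11 to 19. Reversed log2 fold changes, none of them called, were *Gclm* 0.038 with limma voom and *Gsr* -0.007, *Mafg* -0.0872 and *Atf4* -0.0239 with library totals alone. Leaving out 1 liver gave values from -0.26 to 0.0158 for *Gclc* (highest without FXRKO liver 1), from -0.18 to 0.0104 for *Gclm* and -0.16 to 0.0468 for *Txnrd1* (both highest without BCL6LKOFXRKO liver 4), from -0.0571 (without BCL6LKOFXRKO liver 4) to 0.22 for *Mafg*, and from -0.0601 (without BCL6LKOFXRKO liver 3) to 0.33 for *Bach1*. *Hmox1* was called with DESeq2, limma voom, no robust shrinkage or no FXRKO liver 1; the cause of these changes was not tested. No paired analysis was possible because the labels give no pairs of livers. Depth limits *Slc7a11*, *Gpx2* and *Ggt1*.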

Other observations

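Markers of further cell types are given beside the 16.2% of all tested genes called higher and 13.5% called lower. Stellate cell markers summed to 142.3 to 191.1 CPM in FXRKO and 300 to 343.4 CPM in BCL6LKOFXRKO, with 4 of 6 called higher. Cholangiocyte markers summed to 41.5 to 65.7 CPM and 74.1 to 133.7 CPM, with 2 of 4 tested called higher and 1 of 5 markers at 0 in FXRKO liver 2. Endothelial markers summed to 115.1 to 158 CPM and 150.4 to 210.1 CPM, with 1 of 5 called. T cell markers were too low to be tested, at 0.752 to 0.9997 CPM and 1.82 to 3.09 CPM in sum, with 1 of 3 at 0 in FXRKO liver 1. Hepatocyte markers gave 1 call in each direction of 6, and their sum, at 52030 to 64890 CPM and 143400 to 159900 CPM, was carried by albumin. The part of these cells in the values of the NRF2 genes was not tested.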
